A study of Mus musculus with 36 samples.

Results

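Liver gene expression was compared between mice fed a high-fat diet with freeze-dried bilberry and mice fed a low-fat diet. The bilberry mice received a diet with 45% of its energy as fat and 20% of its weight as bilberry, and the low-fat mice a diet with 10% of its energy as fat and no berry, both for 13 weeks. All mice were males and 20 weeks old, and their strain is C57BL/6J in the sample labels and C57BL/6JBomTac in the series design. The comparison used the 6 arrays labelled with the bilberry diet and the 6 labelled with the low-fat diet, out of 36 arrays in the series, with the liver RNA of 1 mouse on each. The 24 other arrays held a high-fat diet without berry (45% of energy as fat, 6 mice) and high-fat diets with 20% lingonberry, blackcurrant or açai (18 mice), which entered only the estimate of the spread and the tests of the difference named below. Because the bilberry diet differed from the low-fat diet in both fat and berry, the contrast with low-fat cannot tell the effect of fat from that of bilberry. Bilberry was therefore also set against high-fat and against the mean of the 3 other berry diets, as tests of whether its difference from low-fat departed from theirs.

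Each of the 6 chips carried 1 array of every diet, so that a difference between the diets is the mean of 6 differences within a chip. A diet always had the same position on the chip, and position and diet cannot be told apart. Of 45281 probes, 17907 were tested, namely those with a detection p-value under 0.05 on at least 6 of the 36 arrays. Probes are oligonucleotides on beads whose brightness follows the amount of a transcript; levels below are normalized log2 intensities, and a difference is given on the log2 scale ± the SE that limma estimated. A probe was called when its adjusted p was below 0.05 (limma, Benjamini-Hochberg over all tested probes), and "rose" and "fell" are used only of calls. A gene was represented by its brightest tested probe.

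The liver makes cholesterol, turns part of it into bile acids, stores and burns fatty acids and detoxifies plant compounds and drugs. Sterol-sensing SREBP factors switch on the cholesterol pathway when sterols in the cell are scarce, PPARalpha switches on fatty acid oxidation when fatty acids are abundant, and the nuclear receptors CAR and PXR switch on genes of drug metabolism. Bilberry is rich in anthocyanins and other polyphenols, which are conjugated in the gut and the liver.

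The raw median intensity was 82.6 to 95.4 on the bilberry arrays and 86.0 to 102.9 on the low-fat arrays, and 14406 to 15425 probes were detected on the bilberry arrays against 14486 to 15497 on the low-fat arrays. The 12 tested hepatocyte markers had a mean level of 11.2 to 11.4 in bilberry livers and 11.3 to 11.6 in low-fat livers. One array of each diet stood apart in 18 transcripts of pancreatic acinar cells, which make digestive enzymes. Their mean level was 8.27 in bilberry replicate 2 and 5.15 to 5.27 in the other bilberry livers, and it was 7.47 in low-fat replicate 6 and 5.16 to 5.23 in the other low-fat livers. Without both arrays, 485 probes were called in place of 519. In whole liver, fewer cells of a type and less RNA per cell cannot be told apart.

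Between bilberry and low-fat livers 519 of the 17907 probes were called (2.90%), 335 higher (1.87%) and 184 lower (1.03%) in bilberry livers. Among 10281 named genes, 339 were called (3.30%), of which 213 were higher (2.07%) and 126 lower (1.23%), with a median difference of -0.01 over all of them. These shares are the background of every count of rises and falls in a gene list below. The median size of a called difference was 0.53, and 78 called probes differed by more than 1. The 6 values of the diets did not overlap for 179 probes that lay higher (1%) and 95 that lay lower (0.531%) in bilberry livers. Against high-fat, 109 probes were called (0.609%), and against the mean of the other berries 23 (0.128%), 12 higher (0.067%) and 11 lower (0.0614%). At these shares, the absence of a call in either comparison among the genes of a list is no result about them. With the 6 chips left out of the model as a replicate block, 288 probes were called, all among the 519.

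**Figure D1:**
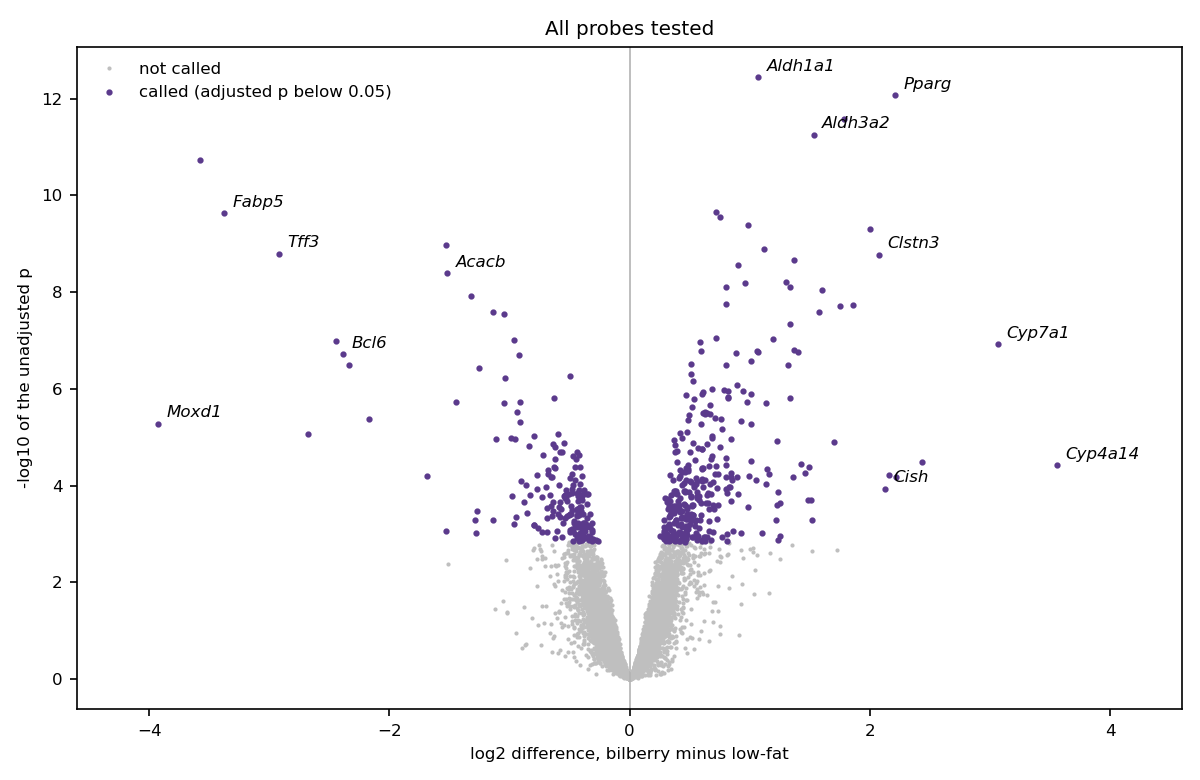
Log2 difference of bilberry minus low-fat (x axis) against -log10 of the unadjusted p (y axis) for the 17907 tested probes, with the 519 called ones in purple. Aldh1a1, Pparg and Aldh3a2 lie at the top right, and Fabp5 and Tff3 at the upper left.

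**Figure D2:**
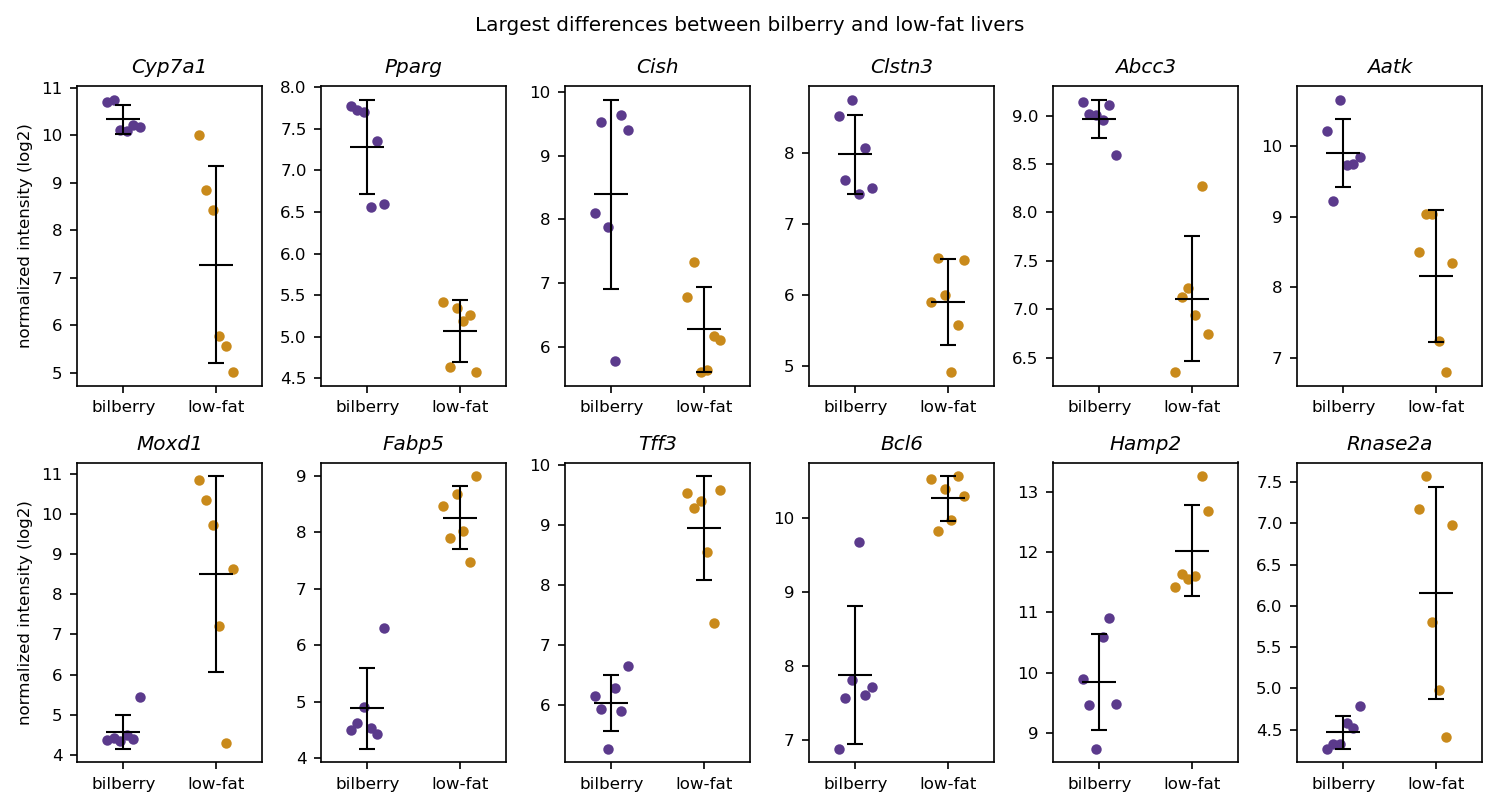
Normalized log2 intensity of the 6 genes with the largest rise (upper row) and the 6 with the largest fall (lower row) under the naming rule, in 6 bilberry livers (left) and 6 low-fat livers (right). Points are mice, and bars are the mean and SD; of these 12 genes Cish, Moxd1 and Rnase2a had overlapping diets.

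Bile acid genes held the largest rise of the naming rule. Cyp7a1, the rate-limiting enzyme of the classical pathway of bile acid synthesis, ran from 10.1 over a median of 10.2 to 10.8 in bilberry livers, against 5.01, 7.10 and 10.0 in low-fat livers. All bilberry livers lay above all low-fat livers, and the bilberry livers were close together (SD 0.303) while the low-fat livers were spread widely (SD 2.08). The difference was 3.07 ± 0.45 (adjusted p = 5.94e-05), or 8.40-fold, with within-chip differences of 0.70 to 5.18. These were 0.7, 1.9 and 1.7 on chips 1 to 3 and 4.3, 4.6 and 5.2 on chips 4 to 6. The low-fat livers had 10.0, 8.85 and 8.43 on chips 1 to 3 and 5.76, 5.57 and 5.01 on chips 4 to 6. High-fat alone lay 1.46 above low-fat, and bilberry lay 1.61 ± 0.45 above high-fat without a call (adjusted p = 0.0995). Cyp8b1, the enzyme that directs synthesis to cholic acid, had 12.5, 12.6 and 12.7 as lowest, median and highest level in bilberry livers, against 11.4, 12.04 and 12.3 in low-fat livers. It rose by 0.64 ± 0.18 (adjusted p = 0.0437), and it was also higher than with high-fat alone, by 0.74 ± 0.18 (adjusted p = 0.0435), while high-fat and low-fat differed by -0.10.

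Abcc3, which exports bile acids and glucuronides from the hepatocyte into blood, had 8.59, 9.01 and 9.14 in bilberry livers, against 6.35, 7.03 and 8.27 in low-fat livers. Its groups did not overlap, and it rose by 1.86 ± 0.25 (adjusted p = 1.34e-05). Cyp2c70, which makes the muricholic acids of the mouse, moved the other way. It stood at 12.03, 12.3 and 13.0 in bilberry livers, against 13.2, 13.6 and 13.9 in low-fat livers, with no overlap, and fell by 1.14 ± 0.15 (adjusted p = 1.63e-05). Neither gene was called against high-fat (differences of 0.23 and -0.12). Of 21 tested bile acid genes of 24 listed, 3 rose, 1 fell and 17 were not called, with a median of -0.05. The bile salt export pump Abcb11 (-0.37) and the uptake carrier Slc10a1 (-0.23) were among the uncalled. Of all named genes 2.07% rose and 1.23% fell. The call of Cyp8b1 was lost without the replicate block (adjusted p = 0.0599) and in 21 of 32 other settings in all, while those of Cyp7a1, Abcc3 and Cyp2c70 held in each of the 32.

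Cholesterol synthesis genes lay higher in bilberry livers as a list. All 14 tested genes of 20 listed were above 0, with a median of 0.58, and 5 rose and none fell, against 2.07% of all named genes that rose. Msmo1, a sterol methyl oxidase of the late pathway, had 11.3, 11.4 and 11.7 in bilberry livers, against 9.78, 10.2 and 10.4 in low-fat livers. Every bilberry liver was above every low-fat liver, and Msmo1 rose by 1.33 ± 0.23 (adjusted p = 0.000416), or 2.52-fold. Cyp51, the lanosterol demethylase, had 8.78, 9.26 and 9.63 in bilberry livers, against 8.19, 8.47 and 8.73 in low-fat livers, a rise of 0.81 ± 0.23 (adjusted p = 0.0494). Nsdhl, the next dehydrogenase of the pathway, had 8.33, 8.66 and 8.70 in bilberry livers, against 7.50, 7.77 and 8.18 in low-fat livers, a rise of 0.77 ± 0.21 (adjusted p = 0.0437). The groups of both genes stood apart without overlap. Lss, which closes the rings of lanosterol, had 8.32, 8.49 and 8.65 in bilberry livers, against 7.56, 7.74 and 8.23 in low-fat livers, a rise of 0.68 ± 0.19 (adjusted p = 0.0484). Hsd17b7, a keto reductase of the pathway, had 10.5, 10.6 and 10.8 in bilberry livers, against 9.81, 10.1 and 10.3 in low-fat livers, a rise of 0.55 ± 0.15 (adjusted p = 0.0395). Both again had groups without overlap.

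Promoters of these genes are shown because the 5 moved together. SREBP works on sterol promoters together with NF-Y, which binds the sequence CCAAT. The windows run from 220 bases before to 30 bases after the transcription start, 5′ to 3′ on the gene's strand, from RefSeq (GRCm38.p6), with CCAAT or its reverse complement ATTGG in capitals. They are Msmo1 at chr8:64733549-64733798 on the minus strand, Hsd17b7 at chr1:169969176-169969425 on the minus strand and Nsdhl at chrX:72918301-72918550 on the plus strand.
Msmo1: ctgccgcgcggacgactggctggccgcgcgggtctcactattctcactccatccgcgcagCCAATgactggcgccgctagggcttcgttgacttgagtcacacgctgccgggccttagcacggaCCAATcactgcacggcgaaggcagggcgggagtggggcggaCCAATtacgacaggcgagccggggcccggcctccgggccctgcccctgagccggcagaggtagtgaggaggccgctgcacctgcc
Hsd17b7: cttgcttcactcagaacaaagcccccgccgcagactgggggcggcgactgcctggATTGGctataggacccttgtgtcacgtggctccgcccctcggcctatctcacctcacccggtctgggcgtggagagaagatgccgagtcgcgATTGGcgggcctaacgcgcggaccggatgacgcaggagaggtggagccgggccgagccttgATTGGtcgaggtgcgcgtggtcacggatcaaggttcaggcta
Nsdhl: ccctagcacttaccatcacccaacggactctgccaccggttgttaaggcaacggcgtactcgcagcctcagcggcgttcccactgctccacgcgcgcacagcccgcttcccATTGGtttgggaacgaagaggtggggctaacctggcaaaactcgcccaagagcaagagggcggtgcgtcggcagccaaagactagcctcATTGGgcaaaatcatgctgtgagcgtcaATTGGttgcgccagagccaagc
Each of these windows holds 3 matches, and those of Lss and Cyp51 hold 1 each. Of the 14 tested cholesterol genes 12 had a window, and all 12 hold CCAAT on either strand, against 33.4% of 32817 windows over all genes. The 12 are counted as genes and the 33.4% as windows, and a gene with several starts has several windows in which to match. The sterol element TCACNCCAC, searched on both strands and not overlapping CCAAT, was in none of the 12 and in 1.07% of all windows. These letters are a description of the windows and no test of binding.

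The same genes were also set against high-fat, the diet from which bilberry differs, by its label, in the berry alone. There 10 of the 14 were higher (0.290% of all probes were higher in that comparison), with a median of 0.91, while the median of high-fat minus low-fat was -0.43. Nsdhl lay 1.28 ± 0.21 above high-fat (adjusted p = 0.00477), Cyp51 1.29 ± 0.23 (adjusted p = 0.00788) and Msmo1 1.17 ± 0.23 (adjusted p = 0.00884). Lss was called against the other berries too, at 0.82 above their mean (adjusted p = 0.0338). Squalene epoxidase Sqle, named after its values were seen, was 0.62 ± 0.32 above low-fat without a call (adjusted p = 0.364) and 1.35 ± 0.32 above high-fat (adjusted p = 0.0352). Of the 5 calls against low-fat, the call of Msmo1 held in all 32 other settings. Those of Cyp51, Lss, Nsdhl and Hsd17b7 were lost in 23, 22, 18 and 15 of the 32. Without the replicate block Msmo1 alone of the 5 was called, without both arrays rich in pancreatic transcripts 3 were called, and with 1 chip or array left out 1 to 4 were called.

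**Figure D3:**
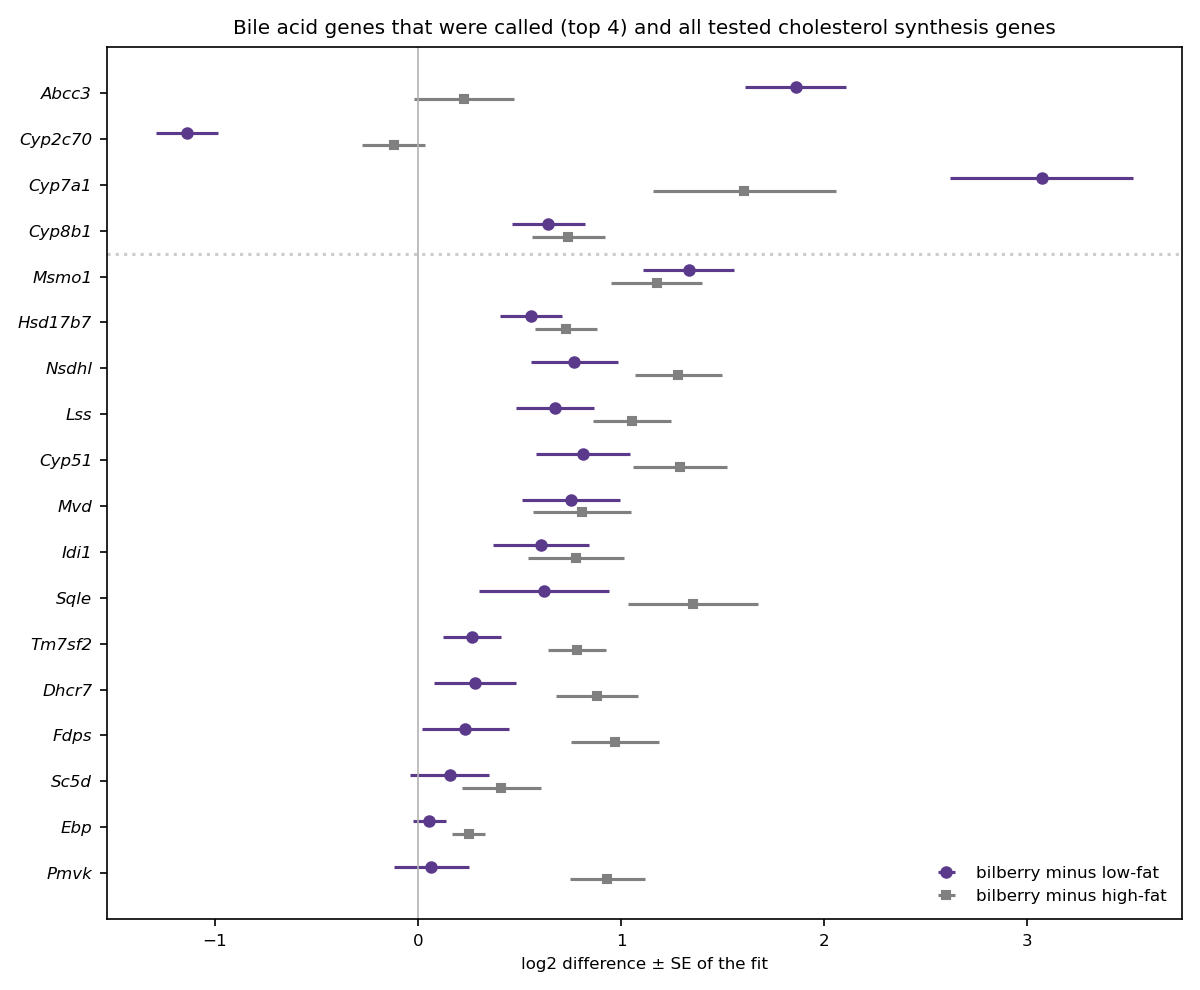
Log2 differences with the SE from limma, of bilberry minus low-fat (purple circles) and bilberry minus high-fat (grey squares), for the 4 called bile acid genes (above the dotted line) and the 14 tested cholesterol synthesis genes. All 14 purple circles of the lower block lie above 0, and Pmvk and Fdps lie near 0 against low-fat but near 1 against high-fat.

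Of 10 tested genes of sterol uptake and further SREBP2 targets, of 14 listed, 1 rose and none fell, with a median of -0.03. Tmem97, a sterol-regulated membrane protein, had 9.79, 9.91 and 10.1 in bilberry livers, against 9.44, 9.48 and 9.59 in low-fat livers. Without overlap between the groups it rose by 0.43 ± 0.11 (adjusted p = 0.0295), a call lost without the replicate block (adjusted p = 0.053) and in 15 of the 32 settings in all. Acss2, which makes acetyl-CoA from acetate, and the retinal reductase Rdh11 were named after their values were seen. Acss2 was 0.47 below low-fat (adjusted p = 0.166), 0.91 above high-fat (adjusted p = 0.00884) and 0.71 above the other berries (adjusted p = 0.0394). Rdh11 differed by 0.01 from low-fat, by 0.95 from high-fat (adjusted p = 0.00788) and by 0.67 from the other berries (adjusted p = 0.0435). Among 8 tested LXR targets, which carry cholesterol out of cells, the exporter Abca1 had 4.32, 4.47 and 4.69 in bilberry livers, against 4.73, 4.91 and 5.12 in low-fat livers. It was detected in 1 bilberry liver and 6 low-fat livers and fell by 0.42 ± 0.10 (adjusted p = 0.0169), and the other 7 were not called. The call of Abca1 was lost without the replicate block (adjusted p = 0.0534) and in 9 of the 32 settings in all.

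Growth hormone acts on the liver through STAT5, which induces its own inhibitor Cish and is opposed by the repressor Bcl6. These were the only called genes among 10 tested of 14 listed, and they moved in opposite directions. Cish had 5.78, 8.76 and 9.65 as lowest, median and highest level in bilberry livers, against 5.61, 6.14 and 7.33 in low-fat livers. The bilberry livers were spread widely and 1 of them, replicate 4, lay among the low-fat livers. Cish rose by 2.12 ± 0.48 (adjusted p = 0.00977) over low-fat, and it was 2.51 ± 0.48 above high-fat (adjusted p = 0.00884), while high-fat and low-fat differed by -0.39. Bcl6 had 6.88, 7.67 and 9.67 in bilberry livers, against 9.83, 10.3 and 10.6 in low-fat livers. The liver of replicate 4 that was lowest in Cish was the highest bilberry liver in Bcl6, and still below every low-fat liver. Bcl6 fell by 2.39 ± 0.36 (adjusted p = 7.89e-05) against low-fat, and it was 1.65 ± 0.36 lower than with high-fat (adjusted p = 0.0198), with high-fat 0.73 below low-fat. Neither was called against the other berries (adjusted p = 0.133 for Cish and 0.064 for Bcl6). Igf1 (-0.17), the receptor Ghr (-0.16) and Socs2 (-0.51), another STAT5 target, were not called. The call of Bcl6 held in all 32 other settings, and that of Cish was lost without chip 3 (adjusted p = 0.0506), without chip 5 (adjusted p = 0.0709) and with only the 12 arrays fitted without a block (adjusted p = 0.0578).

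The promoter windows of this pair are shown with TTCNNNGAA, the palindromic letters that STAT5 binds, in capitals. Cish lies at chr9:107296439-107296688 on the plus strand, and the second of 2 annotated starts of Bcl6 at chr16:23981254-23981503 on the minus strand (GRCm38.p6).
Cish: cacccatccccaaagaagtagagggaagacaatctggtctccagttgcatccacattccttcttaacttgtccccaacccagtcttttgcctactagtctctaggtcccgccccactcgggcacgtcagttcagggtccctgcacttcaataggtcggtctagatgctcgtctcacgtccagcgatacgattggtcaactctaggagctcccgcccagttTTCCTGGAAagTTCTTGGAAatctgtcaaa
Bcl6: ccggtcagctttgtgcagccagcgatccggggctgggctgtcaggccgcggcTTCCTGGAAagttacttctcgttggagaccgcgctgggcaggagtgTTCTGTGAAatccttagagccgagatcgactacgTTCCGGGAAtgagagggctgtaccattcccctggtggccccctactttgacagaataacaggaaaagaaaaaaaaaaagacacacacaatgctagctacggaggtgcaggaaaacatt
Cish holds 2 matches and this start of Bcl6 holds 3, and the first start of Bcl6 holds 1, whereas 6.87% of the 32817 windows hold any. The pair was chosen because both genes were called, and Bcl6 had 2 windows in which to match. The matches are a description of the windows, and binding of STAT5 was not tested.

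Median Cish levels across the 6 diets were 8.76 with bilberry, 8.64 with blackcurrant, 6.38 with açai, 5.85 with lingonberry, 5.91 with high-fat and 6.14 with low-fat. The blackcurrant livers ran from 5.80 to 10.0 and overlapped those of bilberry. Bcl6 was lowest with the same pair of diets, with medians of 7.67 with bilberry, 8.26 with blackcurrant, 9.61 with high-fat, 9.62 with açai, 9.82 with lingonberry and 10.3 with low-fat. Neighbours in this order overlapped in their ranges. The median of Cyp7a1 was 10.2 with bilberry, 10.1 with açai, 9.90 with blackcurrant, 9.58 with lingonberry, 8.93 with high-fat and 7.10 with low-fat, and the range of bilberry overlapped those of açai and lingonberry but not that of blackcurrant, whose highest liver was at 10.04. Msmo1 had its highest median with bilberry, at 11.4, followed by 11.04 with açai, 10.8 with blackcurrant and lingonberry, 10.2 with low-fat and 10.1 with high-fat.

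**Figure D4:**
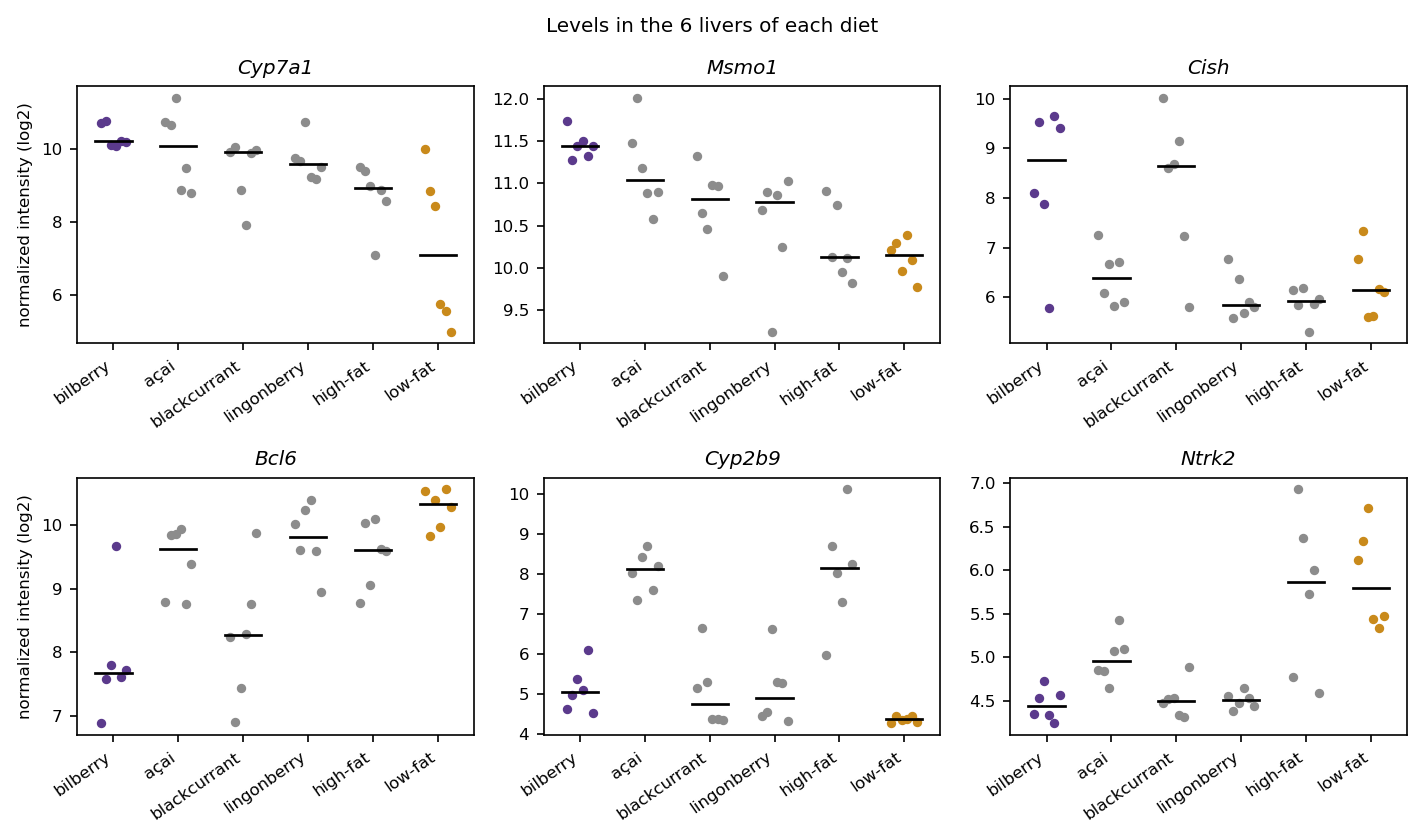
Normalized log2 intensity of 6 genes in the 6 livers of each diet, with bilberry at the left and low-fat at the right; points are mice and lines are medians. Cish is high and Bcl6 low in most bilberry and blackcurrant livers, and Cyp2b9 is high with açai and high-fat.

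Of 33 tested genes of fatty acid oxidation and PPARalpha targets, of 39 listed, 15 rose and none fell. The other 18 were not called, and the median was 0.36. Of all named genes 2.07% rose and 1.23% fell. None of the 33 was called against high-fat, where the median was 0.03 and 3 had an unadjusted p below 0.05 (limma). In that comparison 0.290% of all probes were higher and 0.318% lower, so the absence of a call is no result about the 33. Aldh3a2, which oxidizes fatty aldehydes, had 11.98, 12.2 and 12.8 in bilberry livers, against 10.4, 10.8 and 11.2 in low-fat livers. Its groups did not overlap, and it rose by 1.53 ± 0.14 (adjusted p = 2.51e-08), with a second probe at 1.79 (adjusted p = 1.60e-08). Peroxisomal thiolases rose as well. Acaa1b had 13.96, 14.1 and 14.2 in bilberry livers, against 12.9, 13.3 and 13.7 in low-fat livers, a rise of 0.82 ± 0.14 (adjusted p = 0.000416). Acaa1a had 12.5, 12.6 and 12.6 in bilberry livers, against 11.6, 12.1 and 12.2 in low-fat livers, a rise of 0.51 ± 0.08 (adjusted p = 0.000118). Both thiolases had groups that stood apart. In mitochondria, the enoyl-CoA isomerase Eci1 rose by 0.52 ± 0.08 (adjusted p = 0.00023), the dehydrogenase Acadm by 0.47 ± 0.08 (adjusted p = 0.000382) and the carnitine carrier Slc25a20 by 0.49 ± 0.09 (adjusted p = 0.000756). Acadm stood at 12.3, 12.5 and 12.8 in bilberry livers, against 11.9, 12.1 and 12.2 in low-fat livers, and did not overlap, while Eci1 and Slc25a20 did.

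Levels of the omega hydroxylases, whose substrates are fatty acids, ranged widely between livers of a diet. Cyp4a14, which had the largest difference of the list, had 9.88, 9.99, 10.6, 11.6 and 11.9 in 5 bilberry livers and 8.38 in the sixth, against 4.62, 4.85, 5.34 and 5.82 in 4 low-fat livers and 9.83 and 10.5 in the other two. It rose by 3.56 ± 0.74 (adjusted p = 0.00481) but was higher on only 4 of 6 chips, since the 2 high low-fat livers exceeded the bilberry livers of their chips. Its call was lost in 4 of the 32 settings (adjusted p up to 0.139). Cyp4a31 ran from 6.94 over 7.82 to 8.07 in bilberry livers, against 4.81, 5.72 and 7.99 in low-fat livers, a rise of 1.51 ± 0.36 (adjusted p = 0.0138) that was lost in 11 settings. Cyp4a genes are close copies of each other, so that probes can share signal between them. With only the 12 arrays in the fit, 5 genes of the list were called, and with 1 chip or array left out 7 to 20.

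Fatty acid synthesis genes went the other way. Of 26 tested of 28 listed, 4 fell and none rose (1.23% of all named genes fell), with a median of -0.23. Acacb, which makes the malonyl-CoA that restrains entry of fatty acids into mitochondria, had 7.24, 7.34 and 8.19 in bilberry livers, against 8.58, 9.05 and 9.55 in low-fat livers. It fell by 1.52 ± 0.19 (adjusted p = 4.31e-06), and its groups did not overlap. The elongase Elovl6 had 7.30, 7.79 and 8.32 in bilberry livers, against 8.52, 8.99 and 9.41 in low-fat livers, and fell by 1.25 ± 0.20 (adjusted p = 0.000133). Acly, which provides acetyl-CoA for lipid synthesis, had 11.003, 11.2 and 11.5 in bilberry livers, against 11.6, 11.8 and 12.5 in low-fat livers, and fell by 0.68 ± 0.15 (adjusted p = 0.00635). Neither elongase nor lyase overlapped between the diets. Pnpla3, a lipid droplet protein controlled by carbohydrate feeding, was detected in no bilberry liver and in all 6 low-fat livers, where it had 5.03, 5.13 and 6.40. It was at least 1.58-fold lower in bilberry livers (adjusted p = 8.11e-05), a bound that takes the lowest signal among detected probes as the bilberry level. None of the 4 was called against high-fat, where their differences ran from -0.01 to 0.33, and the uncalled synthase Fasn differed by -0.31 from low-fat.

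Among 18 tested lipid droplet genes and PPARgamma targets of 20 listed, 2 rose and 1 fell, with a median of 0.04. The shares over all named genes were 2.07% for rises and 1.23% for falls. Pparg, the nuclear receptor of fat storage, had 6.56, 7.52 and 7.77 in bilberry livers, against 4.57, 5.23 and 5.42 in low-fat livers. The groups were far apart, and Pparg rose by 2.21 ± 0.19 (adjusted p = 7.51e-09), with 2 further probes called at 1.01 and 0.65. With normexp at an offset of 50 the difference of Pparg was 1.36 and with no background correction 1.11, both called. Fitm1, a membrane protein that helps to form lipid droplets, had 5.97, 6.59 and 6.96 in bilberry livers, against 4.46, 4.74 and 5.63 in low-fat livers, where 3 of 6 detected it, and rose by 1.60 ± 0.21 (adjusted p = 7.31e-06). Lipoprotein lipase, Lpl, had 8.27, 8.44 and 8.74 in bilberry livers, against 8.55, 9.20 and 9.59 in low-fat livers, and fell by 0.69 ± 0.19 (adjusted p = 0.0383), a call lost in 16 of the 32 settings. The coat proteins Plin2 (-0.09) and Cidec (0.75) and the fatty acid transporter Cd36 (-0.02) were not called. Pparg and Fitm1 were not called against high-fat (0.56 and 0.25), and high-fat lay 1.65 and 1.35 above low-fat.

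Fabp5, an epidermal-type carrier of fatty acids, was the only called gene among 3 tested fatty acid binding proteins of 7 listed. It had 4.42, 4.58 and 6.30 in bilberry livers, where 2 of 6 detected it, against 7.48, 8.25 and 8.997 in low-fat livers. Even the highest bilberry liver, replicate 6, lay below every low-fat liver, and Fabp5 fell by 3.38 ± 0.37 (adjusted p = 6.02e-07). The difference was -2.23 with normexp at an offset of 50 and -1.87 with no background correction. High-fat alone lay 3.07 below low-fat, and bilberry lay 0.31 below high-fat without a call (adjusted p = 0.855).

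CAR and PXR targets had 10 rises and no fall among 20 tested genes of 25 listed, with a median of 0.66. Of all named genes 2.07% rose. Against high-fat none of the 20 was called higher and 2 were called lower, with a median of 0.03. The median of high-fat minus low-fat was 0.55. Aldh1a1, a retinal and aldehyde dehydrogenase, had 12.6, 12.7 and 12.9 in bilberry livers, against 11.3, 11.7 and 11.9 in low-fat livers. It rose by 1.07 ± 0.09 (adjusted p = 6.46e-09), the smallest adjusted p of the comparison. The receptor CAR itself, Nr1i3, had 8.30, 8.88 and 9.27 in bilberry livers, against 7.30, 7.66 and 8.02 in low-fat livers, and rose by 1.20 ± 0.17 (adjusted p = 5.15e-05). Cyp3a11, a main drug-metabolizing P450 of mouse liver, had 11.2, 11.6 and 12.2 in bilberry livers, against 9.85, 10.1 and 10.8 in low-fat livers, and rose by 1.40 ± 0.21 (adjusted p = 7.52e-05). All 3 had groups without overlap. Cyp2c29 rose by 1.01 ± 0.17 (adjusted p = 0.000379) and Aldh1a7 by 0.63 ± 0.11 (adjusted p = 0.000717), and the further rises were Abcc3, described above, and 4 other Cyp2c genes. Cyp2c genes are near copies, so their probes may share signal. The count of calls stayed between 8 and 10 in all 32 other settings.

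The Cyp2b genes of the same list were not among the 10 called, though Cyp2b9 and Cyp2b10 also lay higher in bilberry livers. Cyp2b9, named after its values were seen, ran from 4.53 over 5.04 to 6.09 in bilberry livers, 4 of which detected it, and no low-fat liver detected it. It was at least 1.36-fold higher in bilberry livers, without a call (adjusted p = 0.407), and the groups did not overlap. Against high-fat, where its levels were 5.97, 8.14 and 10.1, it was lower by 2.94 ± 0.42 (adjusted p = 0.000881). Lingonberry and blackcurrant livers had medians of 4.90 and 4.75 and açai livers 8.11, and its difference from the mean of the 3 other berries was -0.94 (adjusted p = 0.333). Cyp2b10, the usual CAR target, was 0.91 above low-fat without a call (adjusted p = 0.485).

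Glutathione genes and NRF2 targets showed 10 rises and no fall among 32 tested of 35 listed, with a median of 0.26. The share of rises over all named genes was 2.07%. None of the 32 was called against high-fat, where the median was 0.07, and the median of high-fat minus low-fat was 0.23. The called genes were mainly glutathione transferases, which couple glutathione to reactive compounds. Gsta1 had 6.88, 7.94 and 8.54 in bilberry livers, against 5.43, 5.90 and 7.54 in low-fat livers, and rose by 1.70 ± 0.33 (adjusted p = 0.00214). Its 2 other tested probes were called too. Gsta2 had 7.40, 8.26 and 8.53 in bilberry livers, against 6.36, 6.50 and 7.92 in low-fat livers, and rose by 1.43 ± 0.30 (adjusted p = 0.0048). Both overlapped between the diets, and as close copies they may share signal. Smaller rises were those of Mgst3 (1.05 ± 0.23, adjusted p = 0.00743), Gstt2 (0.99 ± 0.21, adjusted p = 0.0066), Gsta4 (0.70 ± 0.15, adjusted p = 0.00775) and Gstk1 (0.40 ± 0.08, adjusted p = 0.00431). The usual NRF2 markers Nqo1 (0.44, adjusted p = 0.0863), Gclm (0.37, adjusted p = 0.0735) and Srxn1 (0.39, adjusted p = 0.181), named after their values were seen, were not called. With only the 12 arrays and the chip in the fit, 5 genes of the list were called.

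Of 18 tested conjugation enzymes of 24 listed, which attach sugar, sulfate or methyl groups to polyphenols, 2 rose and none fell, with a median of 0.20. The share of rises over all named genes was 2.07%, and that of falls was 1.23%. Ugt3a1 had 10.5, 10.8 and 11.1 in bilberry livers, against 9.88, 9.96 and 10.2 in low-fat livers, and rose by 0.80 ± 0.11 (adjusted p = 1.32e-05). Ugt2b35 had 9.43, 9.47 and 9.65 in bilberry livers, against 8.19, 8.97 and 9.25 in low-fat livers, and rose by 0.61 ± 0.14 (adjusted p = 0.00909). Both stood apart without overlap. None of 7 tested genes of the AhR pathway, which answers to aromatic plant compounds, was called by limma, with an unadjusted p below 0.05 for 4; those with the smallest p were Cyp2a5 (0.93, adjusted p = 0.0644, no overlap) and Nqo1. None of these was called against high-fat.

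Retinoid genes had 5 rises and 1 fall among 18 tested of 19 listed, with a median of 0.14. Of all named genes 2.07% rose and 1.23% fell. Beside Aldh1a1 and Aldh1a7, the retinol dehydrogenases Rdh16 (0.99 ± 0.24, adjusted p = 0.0169) and Rdh9 (0.60 ± 0.17, adjusted p = 0.0487) and the retinal reductase Dhrs4 (0.50 ± 0.13, adjusted p = 0.0295) rose. The retinol-binding protein receptor Stra6l had 5.52, 5.75 and 6.00 in bilberry livers, against 5.73, 6.22 and 6.56 in low-fat livers, and fell by 0.44 ± 0.12 (adjusted p = 0.0286). The calls of Rdh9 and Stra6l were lost without the replicate block (adjusted p = 0.0669 and 0.161). With a chip or an array left out, they were lost in 13 and 9 of 18 fits. Among 13 tested steroid dehydrogenases, Akr1c19, an aldo-keto reductase, had 10.9, 11.2 and 11.7 in bilberry livers, against 9.65, 10.0 and 10.5 in low-fat livers, and rose by 1.14 ± 0.20 (adjusted p = 0.00049). The mitochondrial dehydrogenase Hsd17b10 rose by 0.51 ± 0.13 (adjusted p = 0.0215), and the other 11 were not called.

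In glucose production and insulin response, 3 of 16 tested genes fell and none rose, with a median of -0.07. Over all named genes 1.23% fell and 2.07% rose. Pck1, the entry enzyme of gluconeogenesis, had 9.01, 9.30 and 9.61 in bilberry livers, against 9.73, 10.2 and 11.1 in low-fat livers. It fell by 1.04 ± 0.17 (adjusted p = 0.000206), and its groups did not overlap. Igfbp1, a binding protein that insulin represses, had 6.93, 7.55 and 8.12 in bilberry livers, against 8.16, 8.52 and 9.48 in low-fat livers, and fell by 1.14 ± 0.29 (adjusted p = 0.0252). The glucose-6-phosphate carrier Slc37a4 fell by 0.59 ± 0.15 (adjusted p = 0.0213). The calls of Igfbp1 (adjusted p = 0.0612) and Slc37a4 (adjusted p = 0.0669) were lost without the replicate block. Each was also lost in 10 of 18 fits that left out a chip or an array. Of 17 tested urea cycle and amino acid genes, Cps1, the first enzyme of the cycle, had 11.4, 11.6 and 11.8 in bilberry livers, against 11.7, 12.4 and 12.6 in low-fat livers, and fell by 0.77 ± 0.17 (adjusted p = 0.00977), while 16 were not called.

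Several of the largest differences lay outside these pathways. Clstn3, which encodes the adhesion protein calsyntenin 3, had 7.42, 7.85 and 8.75 in bilberry livers, against 4.91, 5.95 and 6.53 in low-fat livers, and rose by 2.08 ± 0.25 (adjusted p = 2.16e-06). Its other tested probe, with mean levels of 4.72 and 4.41, differed by 0.31 without a call (adjusted p = 0.204). The kinase gene Aatk had 9.22, 9.80 and 10.7 in bilberry livers, against 6.79, 8.42 and 9.04 in low-fat livers, and rose by 1.75 ± 0.23 (adjusted p = 1.37e-05). Lgals1, the sugar-binding galectin 1, had 8.32, 8.59 and 8.90 in bilberry livers, against 6.38, 7.07 and 7.60 in low-fat livers, and rose by 1.58 ± 0.21 (adjusted p = 1.63e-05). None of these 3 overlapped between the diets, and high-fat lay 2.02, 1.93 and 2.10 above low-fat for Clstn3, Aatk and Lgals1. Lgals1 is also a marker of stellate and matrix cells; of 16 such markers it alone rose and Reln fell (-0.50), and their mean level was 6.27 to 6.50 in bilberry livers and 6.40 to 6.58 in low-fat livers.

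Moxd1, a relative of dopamine beta-hydroxylase that male mouse livers express more, had the largest fall. It was detected in 1 of 6 bilberry livers, with levels of 4.35, 4.41 and 5.44, and in 5 of 6 low-fat livers, with levels of 4.30, 9.18 and 10.8. A single low-fat liver, replicate 5, was as low as the bilberry livers, and Moxd1 fell by 3.93 ± 0.72 (adjusted p = 0.00106) with within-chip differences of -6.47 to 0.08. That low-fat liver was also the lowest of its diet in Rnase2a, an eosinophil-type ribonuclease. Rnase2a had 4.27, 4.42 and 4.78 in bilberry livers, against 4.41, 6.39 and 7.57 in low-fat livers, and fell by 1.69 ± 0.37 (adjusted p = 0.00663). The call of Rnase2a was lost without chip 2 (adjusted p = 0.0555) and with only the 12 arrays fitted, with the replicate block (adjusted p = 0.0567) or without it (adjusted p = 0.0605). Of 22 tested male-biased genes Keg1 rose by 0.48 ± 0.13 (adjusted p = 0.0425) and Moxd1 alone fell, and of 9 female-biased genes Cyp4a14 rose and Ntrk2 fell. Over all named genes 2.07% rose and 1.23% fell. The call of Keg1 was lost without the replicate block (adjusted p = 0.0602) and in 20 of the 32 settings in all.

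Tff3, a trefoil peptide of mucous epithelia, had 5.27, 6.04 and 6.65 in bilberry livers, against 7.36, 9.34 and 9.59 in low-fat livers, and fell by 2.92 ± 0.35 (adjusted p = 2.16e-06). Hamp2, a relative of the iron hormone hepcidin, had 8.75, 9.69 and 10.9 in bilberry livers, against 11.4, 11.6 and 13.3 in low-fat livers, and fell by 2.17 ± 0.39 (adjusted p = 0.000883). Neither overlapped between the diets. Besides Hamp2, 1 of 15 tested iron genes fell, the copper-carrying ferroxidase Cp (-0.42 ± 0.12, adjusted p = 0.049), whose call was lost without the replicate block (adjusted p = 0.396). The call of Cp was also lost in 14 of 18 fits that left out a chip or an array. Ntrk2, the receptor of brain-derived neurotrophic factor, was detected in 1 bilberry liver and all 6 low-fat livers, with 4.24, 4.44 and 4.72 in bilberry livers, against 5.34, 5.80 and 6.71 in low-fat livers. It fell by 1.45 ± 0.25 (adjusted p = 0.000476) and was 1.28 ± 0.25 lower than with high-fat (adjusted p = 0.00891), and high-fat and low-fat differed by -0.17. Its medians with lingonberry and blackcurrant were 4.50 and 4.50, and the difference from the other berries was not called (adjusted p = 0.824).

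The remaining falls of the naming rule concerned receptors and a calcium-binding protein. Chrna4, a nicotinic receptor subunit, fell by 1.53 ± 0.18 (adjusted p = 1.75e-06) and Adgrf1, an adhesion G protein-coupled receptor, by 1.32 ± 0.17 (adjusted p = 9.37e-06), both without overlap. Their signal was low in bilberry livers, with medians of 4.70 and 4.92, and 3 and 5 of these livers detected them. With no background correction their differences were -0.62 and -0.55. Egfr, the receptor of epidermal growth factor, had 9.23, 9.86 and 10.2 in bilberry livers, against 10.1, 11.05 and 11.9 in low-fat livers, and fell by 1.29 ± 0.33 (adjusted p = 0.0252), with 4 of its 5 tested probes called lower. Cib3 fell by 1.28 ± 0.35 (adjusted p = 0.0395). The call of Cib3 was lost in 19 of the 32 other settings (adjusted p up to 0.147) and that of Egfr in 11, with its smallest difference, -0.99 (adjusted p = 0.16), without both arrays rich in pancreatic transcripts. Over the 24 genes with the largest rises and falls, 1 rise (Cish) and 2 falls (Bcl6 and Ntrk2) were called against high-fat, and none against the other berries, where 4 had an unadjusted p below 0.05 (limma). Over all probes 0.609% were called against high-fat and 0.128% against the other berries. At 0.128%, the absence of a call among 24 genes is no result about them. The 24 were chosen by the contrast with low-fat, which holds the same bilberry arrays.

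Calls among immune genes were confined to the complement and coagulation list and the acute phase list. Of 30 tested complement and coagulation genes 3 fell and none rose, with a median of -0.15: the complement protease C2 (-0.58 ± 0.12, adjusted p = 0.00292), the pore-forming C9 (-0.53 ± 0.12, adjusted p = 0.0122) and the anticoagulant cofactor Pros1 (-0.42 ± 0.10, adjusted p = 0.0172). Of all named genes 1.23% fell. Among the 30 genes, 12 had an unadjusted p below 0.05 (limma) and 5 were above 0. None of the 3 falls was called without the replicate block (adjusted p = 0.0643, 0.0523 and 0.119). Of 24 tested acute phase genes only Cp fell, and 5 were above 0, with a median of -0.21. No gene was called by limma among 19 chemokine and neutrophil genes, 18 interferon response genes, 13 macrophage markers, 11 endothelial markers or 6 lymphocyte markers. An unadjusted p below 0.05 was found for 4 of these chemokine genes, 1 interferon gene, 1 macrophage marker, 2 endothelial markers and 0 lymphocyte markers. Over all tested probes, 2707 of 17907 had such a p (limma). With 3.3% of named genes called, the absence of a call in lists this short is no result about them. The mean level of the macrophage markers was 7.47 to 7.66 in bilberry livers and 7.56 to 7.82 in low-fat livers.

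Large housekeeping lists gave no call by limma. They were 48 cytosolic ribosomal proteins (median -0.06), 66 subunits of oxidative phosphorylation (0.01) and 27 proteasome subunits (0.08), and the same held for 15 clock genes (0.04), 22 genes of endoplasmic reticulum stress (-0.19), 12 heat shock genes (-0.10) and 15 genes of glycolysis and glycogen (-0.15). The genes with an unadjusted p below 0.05 were 2 ribosomal, 2 oxidative phosphorylation, 2 proteasome, 5 clock, 6 endoplasmic reticulum stress, 1 heat shock and 6 glycolysis genes. Over all tested probes, 2707 of 17907 had such a p (limma). The clock, endoplasmic reticulum stress and glycolysis lists lay above that share and the other lists below it. With 3.3% of named genes called, the absence of a call in the shorter lists is no result about them. A missing call does not show that these genes were equal between the diets.

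**Figure D5:**
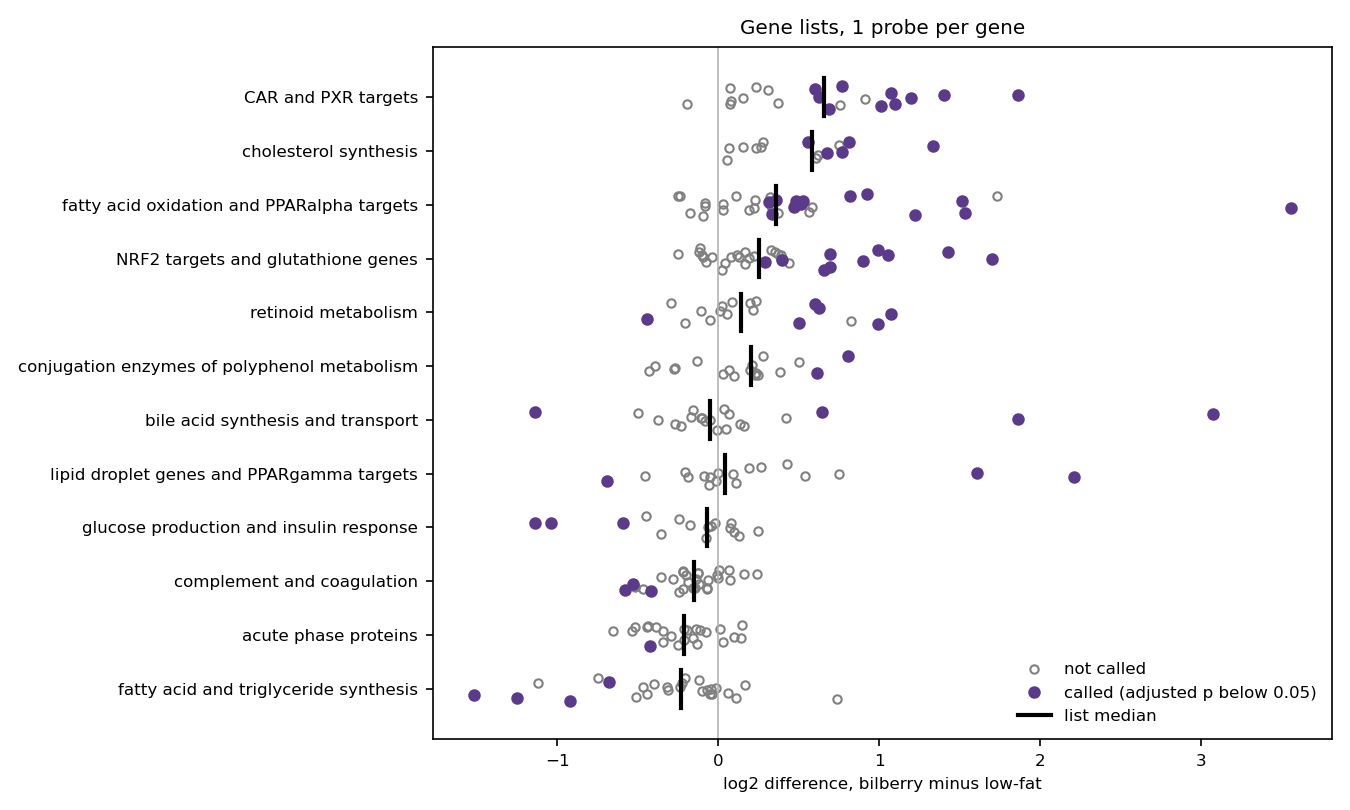
Log2 difference of bilberry minus low-fat (x axis) for the tested genes of 12 lists (rows); filled points were called, open points were not, and the bar is the list median. The medians run from 0.66 for CAR and PXR targets to -0.23 for fatty acid and triglyceride synthesis.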

How the data were processed

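RNA of 36 mouse livers, 6 per diet, was measured on Illumina MouseWG-6 v2.0 beadchips, extracted with an AllPrep kit per the labels. The authors deposited raw intensities, each with a detection p-value, and a second set of processed log2 values (normalization not given in the sources used here). No deposited log2 value departed by more than 0.0501 from the neqc values described next. Of the deposited entries, 974 without a detection p-value were left out.

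Intensities were background-corrected, quantile normalized and log2-transformed with neqc (offset 16) of limma 3.58.1 in R 4.3.3, read with data.table (version 1.17.8). Probes detected on at least 6 of 36 arrays were fitted with a mean per diet, the chip as a fixed block and eBayes, two-sided, over all 36 arrays; the spread is thus shared by all diets. The pairing of arrays comes from the labels, which name the chip; the deviations of the bilberry and low-fat arrays of a chip correlated at 0.03 to 0.44. P-values rest on the spread between 6 mice per diet. Precision is limited by how many arrays there are.

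Of the tested probes 15409 named 10281 genes through the platform annotation, with symbols updated from RefSeq (GRCm38.p6), 6 had several symbols and 2492 were not listed; 56 of the 519 called probes had no symbol and are not named. Where no liver of a diet detected a probe, only a bound exists, written as at least N-fold.

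Named genes are the 12 largest rises and 12 largest falls among called genes with a plain symbol whose sign was the same on 5 or more of the 6 chips, and of each list described the called members, the 6 with the smallest p where more were called, or up to 2 with the smallest p where none was; exceptions and uncalled examples were chosen after their values were seen. Members, lists and tests were chosen with earlier results of these data known, so no list was given a test. Alternatives changed the block, the arrays fitted, background correction, scaling, filter, variance model and array weights, added the pancreatic marker mean as a covariate, and left out arrays. Summaries and plots were made with pandas 2.3.3 and matplotlib 3.10.9 in Python 3.11.15.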

Additional observations from a re-analysis of the deposited data

Results flagged for a closer look

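In groups of 6 livers, single values stood far from the other 5 by Dixon's test for 10 of 142 gene and diet pairs, and chance flags about 1 in 20. Among bilberry livers replicate 6 held 5 of them: it was highest in Fabp5 (6.30, next 4.90) and Moxd1 (5.44, next 4.50) and lowest in Abcc3 (8.59, next 8.95), Gsta2 (7.40, next 8.17) and Nsdhl (8.33, next 8.57). Bilberry replicate 4 was highest in Bcl6 (9.67, next 7.81). Among low-fat livers, replicate 4 was lowest in Acaa1a (11.6, next 12.1), replicate 5 highest in Gsta2 (7.92, next 6.81), and replicate 6 highest in Pnpla3 (6.40, next 5.32) and lowest in Ugt2b35 (8.19, next 8.85).

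The mean level of 18 pancreatic acinar markers stood out in bilberry replicate 2 (8.27, next 5.27) and in low-fat replicate 6 (7.47, next 5.23). Bilberry replicate 2 held none of the outlying gene values above, and low-fat replicate 6 held those of Pnpla3 and Ugt2b35. Without both arrays Pnpla3 was still called and Ugt2b35 was not (adjusted p = 0.0776).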

How the results depend on the processing

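The 519 calls of bilberry against low-fat (335 higher, 184 lower) became 288 (198 and 90) without the chip as a replicate block, all of them among the 519, 268 (175 and 93) with only the 12 arrays and the replicate block, 241 (163 and 78) with only the 12 arrays and no replicate block, and 300 (189 and 111) with median scaling in place of quantile normalization. Other settings gave 378 to 657 calls. Leaving out a chip or an array gave 235 to 569 calls (156 to 333 higher, 79 to 238 lower); the lowest came without chip 1, and 328, 320, 312 and 335 remained without chips 2, 3, 4 and 5 and 326 without bilberry replicate 1. The 109 calls against high-fat became 68 without the replicate block, 62 without the detection filter, 62 without both arrays rich in pancreatic transcripts, an alternative chosen after seeing the data, and 24 to 126 with an array or chip left out. The 23 calls against the other berries became 0 without the replicate block (limma; 1289 probes had an unadjusted p under 0.05), 4 with only the arrays compared and no replicate block, 303 with median scaling, 2 without the detection filter, 41 with array weights, 3 without both pancreatic arrays and 0 to 44 with an array or chip left out. The causes were not tested. Direction was followed for 91 genes, namely the named genes and the called members of the lists. No called gene among them changed its direction, and the uncalled Rdh11 ran from -0.07 to 0.14. The direction of the other called probes was not followed. Of 69 called genes under the naming rule 34 were called in each of the 32 other settings, Moxd1 in the 31 that tested it, and 34 lost their call in at least 1; beside those given with the results, these were Dhrs4 (16 settings), Hsd17b10 (11), Rdh16 (9), Gsta4 (5), Mgst3 (4), Ugt2b35 (3), Slc25a20 (2), Cps1 (2), Acly, Gstk1 and Gstt2 (1 each), and C2 (3), C9 (8) and Pros1 (11), the fit without the block included. Another background correction lowered the size of 14 of the 69 by over 1.5 times, namely Abca1, Adgrf1, Chrna4, Clstn3, Cyp4a31, Fabp5, Fitm1, Gsta1, Moxd1, Ntrk2, Pnpla3, Pparg, Rnase2a and Stra6l. Among lists with 3 or more calls in a direction, counts that moved by over 1.5 times included those of complement (0 to 8 in place of 3), glucose production (1 in place of 3 without the block and with some arrays or chips left out), retinoids (2 to 6 in place of 5) and glutathione genes (3 to 11 in place of 10 with an array or chip left out). Counts of 1 or 2 also moved, such as those of steroid dehydrogenases (1 to 3 in place of 2), male-biased genes that fell (1 to 3 in place of 1), urea cycle genes (0 to 2 in place of 1), iron genes that fell (1 to 2 in place of 2) and female-biased genes that rose (0 to 2 in place of 1). Low signal limits Fabp5, Moxd1, Rnase2a, Ntrk2, Abca1 and Pnpla3, which few bilberry livers detected. It also limits Chrna4 and Adgrf1, which 3 and 5 bilberry livers detected.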
